A study of Mus musculus with 16 samples.

Results

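Arms of microRNAs that are made in the male germ line were measured in mouse sperm: miR-34b-5p, miR-34b-3p, miR-34c-5p, miR-449a-5p and miR-881-3p. They are 5 of the 1622 mature arms that were searched in 8 small RNA libraries, and all 5 are among the 546 arms with at least 1 read. An arm was counted by reads of 20 to 26 nt that begin with its first 20 bases. The libraries come from mature sperm of the cauda epididymis of adult males without Dnmt2 (Trdmt1), a tRNA cytosine methyltransferase, or with it. The 4 groups of 2 libraries were Dnmt2-/- on a high-fat diet (HFD, D12492), Dnmt2-/- on a normal diet (ND), Dnmt2+/+ on HFD and Dnmt2+/+ on ND. All males had the C57BL/6NCrl background; per the labels' protocols, the knockout was brought onto it by backcrossing, and purchased males were 6 weeks old when bought. The knockout is of the whole animal, so germ cells and all other cells of the epididymis lack Dnmt2. The deletion itself was not checked here, since small RNA reads do not measure the Dnmt2 mRNA.

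A microRNA is cut from a hairpin, and either the 5p or the 3p arm is loaded into an Argonaute protein. Bases 2 to 8 of the loaded arm, the seed, pair with target mRNAs, so arms with the same seed can act on the same targets. The family of miR-34 and miR-449 is switched on in meiosis and in multiciliated cells; mice that lack both miR-34b/c and miR-449 have male infertility and defects of motile cilia. miR-881 belongs to a large group of testis microRNAs on the X chromosome. Such arms serve as markers of RNA made in the germ line, although sperm also gain small RNA from the epididymis after they leave the testis.

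The sequences show which members can be told apart and which share a seed. They are RefSeq sequences on GRCm38.p6, written 5′ to 3′, with the seed in capitals. The first 3 lines share the seed of the 5p arms of that family, the next 2 share the seed of the miR-34b and miR-34c 3p arms, and the seed of miR-881-3p was found in no other arm with reads.
miR-34b-5p: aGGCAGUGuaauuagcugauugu
miR-449a-5p: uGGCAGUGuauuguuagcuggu
miR-34a-5p: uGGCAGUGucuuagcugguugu
miR-34b-3p: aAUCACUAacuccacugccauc
miR-34c-3p: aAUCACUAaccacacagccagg
miR-881-3p: aACUGUGUcuuuucugaauaga

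On the minus strand of chromosome 9, miR-34b-5p lies at chr9:51103610-51103632 and miR-34b-3p at chr9:51103574-51103595. The Mir34b and Mir34c hairpins are close neighbours, and both lie within the annotated spans of Hoatz and Btg4. miR-449a-5p is at chr13:113037549-113037570 on the plus strand, inside the span of Cdc20b, 1442 bases after the Mir449c hairpin. miR-881-3p is at chrX:66801954-66801975 on the minus strand, inside no other annotated gene, and 1336 bases separate its hairpin from Mir880. A mature sequence was at hand for 4 of the 5 members. miR-34c-5p was counted from the start that 99.2% of the reads on its side of the Mir34c hairpin used.

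Depth was 10165031 to 19030258 reads per library, and 1.08% to 7.03% of the reads began as 1 of the 1622 arms searched. The reference lacks some microRNAs, so ranks and shares of microRNA reads refer to these arms alone. Recurrent base changes at fixed read positions split the libraries into 3 sets that cross the groups. Set A has a G-to-T change at base 29, with 376.2 to 409.1 changed reads per 10000 unchanged reads of a sequence (median over 50 abundant sequences). It holds both Dnmt2-/- ND libraries and Dnmt2+/+ ND replicate 1. Set B has a C-to-G change at base 26, with 9.92 to 11.03 changed reads per 10000 unchanged reads by the same measure. It holds Dnmt2-/- HFD replicate 1 and both Dnmt2+/+ HFD libraries. Set C has neither change, and holds Dnmt2-/- HFD replicate 2 and Dnmt2+/+ ND replicate 2. The labels name no batch, and what the sets stand for was not tested. Set A is thus ND alone and set B HFD alone, so within them diet and set cannot be told apart. The germ cell list of 11 microRNAs (22 arms, 3 to 8 of them at 0 in a library) summed to 394 to 1662 CPM in set A, 566.3 to 1050 CPM in set B and 1000 to 1172 CPM in set C. Of this, miR-881-3p alone gave 315.6 to 1398, 270 to 586.7 and 544.9 to 727.7 CPM. Other arms of the list differed: miR-34c-5p had 8.95 to 25.4 CPM in set A and 110.1 to 181.2 CPM in set B. miR-871-5p had 2.05 to 2.43 and 13.5 to 20.5 CPM, while miR-34b-3p overlapped, with 6.75 to 18.7 and 9.22 to 12.7 CPM. The sum is therefore no measure of the germ cells in a set. The epithelial list (12 arms, 1 to 3 at 0), the miR-200 group and miR-205, summed to 222.3 to 430 CPM in set A, 3092 to 4052 CPM in set B and 649.1 to 1986 CPM in set C. Blood and immune arms (3 to 7 of 12 at 0) summed to 3.57 to 10.2, 60.8 to 98.97 and 36.6 to 39.8 CPM in sets A, B and C, and endothelial miR-126a was at 1.37 to 2.81, 11.7 to 19.2 and 7.82 to 14.2 CPM. The muscle list had 1 of 5 names in the reference table, miR-206, which reached 64.7 to 75.3 CPM in set B, against 0.0759 to 0.676 CPM in sets A and C. The liver list, miR-122 alone, had no entry in the table and was not counted. In these bulk libraries fewer germ cells and less of an RNA per cell cannot be told apart, and the part of other cells in the results below was not tested.

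The members spanned more than 3 orders of magnitude in reads. Of the 86191 reads of all members, miR-881-3p had 74320 and miR-34c-5p had 9672, while miR-34b-3p had 2023, miR-449a-5p 164 and miR-34b-5p 12. By mean level miR-881-3p was 12th of the 546 arms with reads, at 658.6 ± 389.7 CPM (SD, n = 8). miR-34c-5p was 28th at 102.1 ± 86.7 CPM, miR-34b-3p 59th at 18.97 ± 16.6 CPM and miR-449a-5p 132nd at 1.78 ± 1.88 CPM. miR-34b-5p was 265th at 0.129 ± 0.128 CPM. Within each library miR-881-3p exceeded miR-34c-5p, miR-34c-5p exceeded miR-34b-3p, and miR-34b-3p exceeded miR-449a-5p in 8 of 8 libraries. miR-449a-5p exceeded miR-34b-5p in 6 of 8, with equal reads in the other 2. These are read counts of arms of similar length, and how well each arm enters a library was not tested. Together the members made up 0.662% and 3.08% of the microRNA reads in the Dnmt2-/- HFD libraries and 3.07% and 8.13% in the Dnmt2-/- ND libraries. The share was 1.10% and 1.09% in the Dnmt2+/+ HFD libraries, against 5.21% and 3.98% in the Dnmt2+/+ ND libraries.

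**Figure D1:**
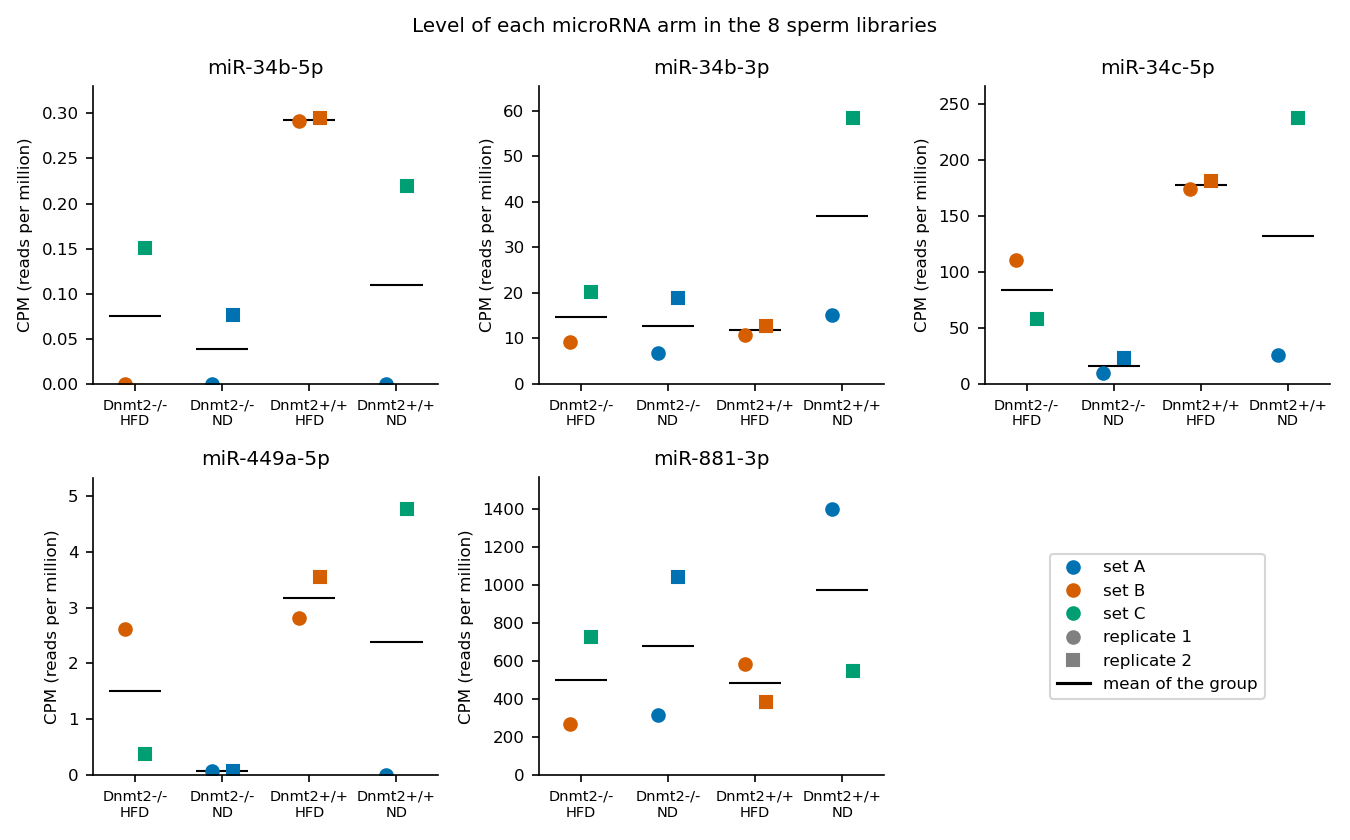
CPM of each of the 5 arms (y axis, linear from 0, own scale per panel) in the 4 groups (x axis); each point is 1 library, its colour is the set defined by base changes, its shape the replicate number, and the line is the group mean. Dnmt2+/+ ND replicate 2 is the highest library for miR-34b-3p, miR-34c-5p and miR-449a-5p, while miR-881-3p is highest in Dnmt2+/+ ND replicate 1 at 1398 CPM.

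miR-881-3p, the most abundant member, had 270 and 727.7 CPM in Dnmt2-/- HFD sperm and 315.6 and 1044 CPM in Dnmt2-/- ND sperm. In Dnmt2+/+ sperm it had 586.7 and 382.4 CPM on HFD, against 1398 and 544.9 CPM on ND. The 2 libraries of a group differed by 1.53-fold to 3.31-fold, and the diets and the genotypes overlapped. At the annotated starts all 74320 reads were of the 3p arm. The 5p arm had 0 reads at its annotated start in every library, which allows up to 3 reads, or 0.158 to 0.295 CPM. Other starts of the 5p arm were not counted. Of the 3p reads that began within 2 bases of their annotated start, 97.1% began at it and 2.63% 1 base before it, so nearly all carried the annotated seed.

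The 3′ end of miR-881-3p was much less uniform. In the hairpin below, with the mature arm in capitals, the base after the arm is a g, so an A at that place is not copied from the hairpin.
Mir881: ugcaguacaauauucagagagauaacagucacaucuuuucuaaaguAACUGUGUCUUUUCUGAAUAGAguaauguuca
The 22-nt arm that matches the hairpin made up 55.5% of the reads, the arm with 1 added A 27.1%, and the arm with 2 added A 7.19%. A 21-nt form made up 5.04%. The 22-nt arm itself ends in A, so the 21-nt form with an added A cannot be told from it. The 2 tailed forms are shown with the added bases in capitals.
miR-881-3p with 1 A: aacugugucuuuucugaauagaA
miR-881-3p with 2 A: aacugugucuuuucugaauagaAA
Bases beyond the match to the hairpin are called a tail here, and a tail counts every break after base 20, sequencing errors included. An added base that equals the next base of the hairpin is not counted. Tails made only of A were on 16.5% and 25.3% of the miR-881-3p reads of Dnmt2-/- HFD sperm and on 33.6% and 43.96% in Dnmt2-/- ND sperm. They were on 23.9% and 15.6% in Dnmt2+/+ HFD sperm, against 46.4% and 17.9% in Dnmt2+/+ ND sperm. The 3 libraries of set A were the highest, at 33.6% to 46.4%, set B had 15.6% to 23.9% and set C 17.9% to 25.3%. Over 67 other arms with at least 20 reads in every library, the median share of A tails was 4.77% to 8.34%, and miR-881-3p ranked 2nd to 9th of 69 arms by this share. Tails of U alone were rarer, at 0.911% to 1.47% in set A, 2.85% to 4.73% in set B and 1.78% to 3.56% in set C. Counted over tails of any base, 26.5% ± 3.25 of the reads on HFD and 39.2% ± 11.8 on ND had one (SD, n = 4 each), a difference of -12.7 percentage points. The diets overlapped and the two-sided exact permutation p was 0.114, where 4 libraries against 4 cannot go below 0.0286. This and the other p-values of shares are unadjusted; 16 such tests were run, and the lowest adjusted p of any of them was 0.343. By genotype the means were 34.3% ± 10.1 in Dnmt2-/- and 31.4% ± 12.2 in Dnmt2+/+ sperm, with an exact permutation p of 0.771.

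**Figure D2:**
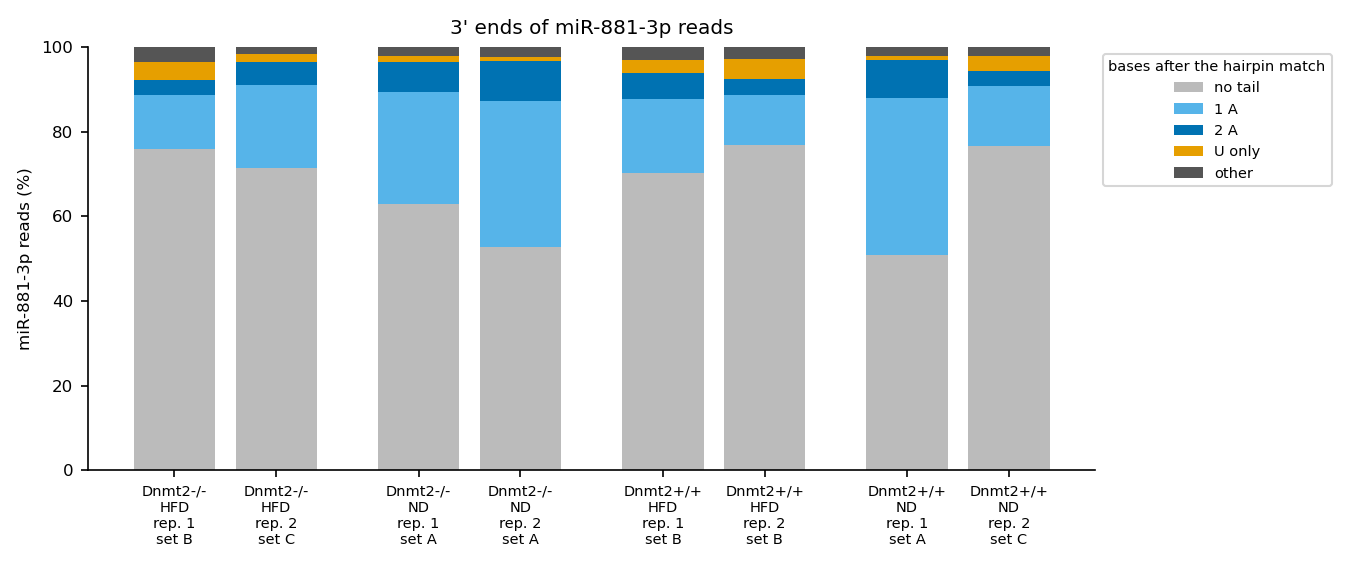
Share of miR-881-3p reads (y axis, percent) by the bases that follow the match to the hairpin, in each library (x axis, with replicate and set): no tail, 1 A, 2 A, U only, or any other. Reads without a tail made up 50.8% to 62.9% in set A and 70.2% to 76.8% in the other 5 libraries.

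The X-chromosome list that holds miR-881 has 24 names, of which 20 had an arm in the table and 30 arms had reads. Of these, 12 arms reached a mean of 10 CPM. After miR-881-3p the most abundant were miR-465b-5p at 391.2 CPM and miR-465c-5p at 288 CPM. The rest were miR-470-5p at 49.2 CPM, miR-871-3p at 35.5 CPM, the 3p arms of miR-465a, miR-465b and miR-465c, which share their first 20 bases, at 34.8 CPM, miR-878-5p at 18.2 CPM, miR-741-3p at 16.99 CPM, miR-465a-5p at 15.6 CPM, miR-743b-3p at 12.2 CPM, miR-871-5p at 11.4 CPM and miR-743a-5p at 10.8 CPM. The miR-465 arms come from near-identical copies, so reads may be split between them. These X-linked arms were not all high in the same libraries. miR-465a-5p, miR-465b-5p, miR-465c-5p, miR-470-5p, miR-741-3p, miR-743a-5p, miR-743b-3p and miR-871-5p were lower in all of set A than in any library of set B. For miR-878-5p the ranges of these sets met at 14.75 CPM. Only miR-881-3p, miR-871-3p and the shared miR-465 3p arms had overlapping ranges. miR-881-3p had 315.6 to 1398 CPM in set A and 270 to 586.7 CPM in set B, while miR-465b-5p had 159.2 to 303.3 CPM in set A and 397.2 to 583.2 CPM in set B. miR-465a-5p stood still further apart, with 1.52 to 2.96 CPM in set A and 21.3 to 35.7 CPM in set B. The 2 arms of miR-871 also differed: miR-871-3p had 8.50 to 93.96 CPM in set A and 14.4 to 34.4 CPM in set B, against 2.05 to 2.43 and 13.5 to 20.5 CPM for miR-871-5p.

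miR-34c-5p was the most abundant arm of the miR-34 and miR-449 family and held 73.6% of its reads. It had 110.1 and 57.4 CPM in Dnmt2-/- HFD sperm, 8.95 and 22.8 CPM in Dnmt2-/- ND sperm, 173.8 and 181.2 CPM in Dnmt2+/+ HFD sperm, and 25.4 and 237.4 CPM in Dnmt2+/+ ND sperm. The 3 ND libraries of set A were the lowest of the 8, and the remaining ND library, Dnmt2+/+ ND replicate 2, was the highest. In CPM the Dnmt2-/- value was the lower one within each set: 15.9 against 25.4 CPM in set A (2 Dnmt2-/- libraries and 1 Dnmt2+/+), 110.1 against 177.5 CPM in set B (1 and 2), and 57.4 against 237.4 CPM in set C (1 and 1, which also differ in diet). This was not particular to miR-34c-5p. miR-34b-3p was also lower in Dnmt2-/- within sets A, B and C, at 12.7 against 15.1, 9.22 against 11.7 and 20.2 against 58.4 CPM. With all reads as library size, 181 of the 188 arms tested had a genotype log2 fold change below 0. The fit with the set as a term gave a genotype log2 fold change of -0.68 ± 0.41 SE for miR-34c-5p (95% interval -1.76 to 0.40), which was not called (edgeR adjusted p = 0.583; 0.016 to 0.997 over the 15 alternative settings).

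The level of miR-34c-5p depended on the denominator. Per 1000000 microRNA reads it had 1858 and 2198 in Dnmt2-/- HFD sperm and 829.7 and 1709 in Dnmt2-/- ND sperm. In Dnmt2+/+ sperm it had 2472 and 3392 on HFD, against 921.4 and 11165 on ND. On this scale Dnmt2+/+ ND replicate 2 stood apart from the other 7 libraries, which lay within 829.7 to 3392. On this scale the order of the genotypes in set A was the other way, with a mean of 1270 in the 2 Dnmt2-/- libraries against 921.4 in the Dnmt2+/+ library, while it held in sets B (1858 against 2932) and C (2198 against 11165). The whole family took 0.278% ± 0.0924 of the microRNA reads without Dnmt2 and 0.613% ± 0.678 with it (SD, n = 4 each; exact permutation p = 0.514). By diet the family share was 0.310% ± 0.0772 on HFD and 0.581% ± 0.698 on ND (exact permutation p = 0.857). In Dnmt2+/+ ND replicate 2 it was 1.62%, and the next highest library had 0.388%.

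Nearly all miR-34c-5p reads began at the same base, but their 3′ ends varied between libraries. Of all its reads 57.0% were the 23-nt form that matches the hairpin, 11.7% the 21-nt form and 11.7% a 23-nt form that ends in a U not in the hairpin. A tail of any base was on 26.1% and 11.9% of the reads in Dnmt2-/- HFD sperm and on 8.48% and 9.67% in Dnmt2-/- ND sperm. It was on 24.8% and 28.0% in Dnmt2+/+ HFD sperm, against 7.03% and 15.3% in Dnmt2+/+ ND sperm. The diet means were 22.7% ± 7.32 on HFD and 10.1% ± 3.64 on ND (SD, n = 4 each), a difference of 12.6 percentage points with an exact permutation p of 0.0571 (0.343 adjusted over the 16 tests of shares), and 1 HFD library lay within the ND range. The sets did not overlap, with 7.03% to 9.67% in set A, 24.8% to 28.0% in set B and 11.9% to 15.3% in set C. The tail of miR-34c-5p was thus most frequent in set B, where the A tail of miR-881-3p was less frequent than in set A. The median share of any tail over 67 other arms was also higher in set B, at 30.8% to 32.8%, than in the other 5 libraries, at 21.4% to 24.1%.

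miR-34b-3p, which shares its seed with miR-34c-3p, had 9.22 and 20.2 CPM in Dnmt2-/- HFD sperm and 6.75 and 18.7 CPM in Dnmt2-/- ND sperm. It had 10.7 and 12.7 CPM in Dnmt2+/+ HFD sperm, against 15.1 and 58.4 CPM in Dnmt2+/+ ND sperm. Apart from Dnmt2+/+ ND replicate 2 the libraries lay within 6.75 to 20.2 CPM, and the diets and genotypes overlapped. Unlike miR-34c-5p and miR-449a-5p, miR-34b-3p had a second start: 20.9% of its reads began 1 base after the annotated start, which moves the seed by 1 base, and 78.0% began at it. The full 22-nt form made up 57.7% of the reads at the annotated start, and a 22-nt form that ends in a U not in the hairpin made up 14.1%.
miR-34b-3p with U: aaucacuaacuccacugccauU
A tail of any base was on 30.4% ± 8.55 of the reads on HFD and 20.2% ± 3.66 on ND (SD, n = 4 each; exact permutation p = 0.0857).

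miR-34b-5p, the partner strand in the same hairpin, was close to the detection limit. Its reads numbered 0 and 2 in Dnmt2-/- HFD sperm, 0 and 1 in Dnmt2-/- ND sperm, 3 and 3 in Dnmt2+/+ HFD sperm, and 0 and 3 in Dnmt2+/+ ND sperm. A count of 0 allows up to 0.158 to 0.291 CPM in these libraries, and no fold change is given. Its first 20 bases differ from those of miR-34c-5p at 1 base, and miR-34c-5p had 9672 reads, so the part of misread miR-34c-5p among these 12 was not tested; 4 of the 12 ended in a C that is not in the Mir34b hairpin. More reads of this strand began 1 base earlier, 33 against 12. The hairpin is shown with the annotated miR-34b-5p in capitals, and the earlier form with its own seed in capitals.
Mir34b: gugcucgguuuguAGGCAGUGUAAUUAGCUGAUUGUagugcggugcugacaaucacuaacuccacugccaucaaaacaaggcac
miR-34b-5p, 1 base earlier: uAGGCAGUguaauuagcugauugu
With starts within 2 bases of the annotated one, the 5p arm had 45 reads and the 3p arm 2592, so the 3p arm made up 98.3% of both. At the annotated starts alone it made up 99.4%, and 97.4% to 100% in single libraries. The 3p share was 98.6% ± 1.26 on HFD and 99.8% ± 0.226 on ND (SD, n = 4 each; exact permutation p = 0.171).

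The neighbouring hairpin Mir34c used its arms the other way, with 9672 reads of the 5p arm and 1200 of the 3p arm. The 3p arm made up 4.14% and 20.1% of the miR-34c reads in Dnmt2-/- HFD sperm and 28.5% and 20.8% in Dnmt2-/- ND sperm. It made up 4.28% and 4.46% in Dnmt2+/+ HFD sperm, against 15.7% and 15.1% in Dnmt2+/+ ND sperm. The 3 libraries of set B had 4.14% to 4.46%, with Wilson 95% intervals between 3.14% and 5.48%, and the other 5 had 15.1% to 28.5%, with intervals between 12.9% and 35.8%. The single HFD library outside set B, Dnmt2-/- HFD replicate 2, had a share within the ND range.

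The contrast also appeared in the ratio between the 2 hairpins, which are transcribed together. This ratio rests on the same miR-34c-5p reads as the 3p share above, so it is not an independent result. miR-34c-5p had 11.9 and 2.84 reads per read of miR-34b-3p in Dnmt2-/- HFD sperm and 1.33 and 1.22 in Dnmt2-/- ND sperm. The ratio was 16.3 and 14.3 in Dnmt2+/+ HFD sperm, against 1.68 and 4.07 in Dnmt2+/+ ND sperm. It was 1.22 to 1.68 in set A, 11.9 to 16.3 in set B and 2.84 to 4.07 in set C, and within set C the HFD library had the lower value. The ratio of the 3p arms, miR-34c-3p over miR-34b-3p, varied far less, with 0.312 to 0.528 in set A, 0.516 to 0.727 in set B and 0.714 to 0.724 in set C. miR-881-3p had 35.3 to 55 reads per read of miR-34c-5p in set A, 2.11 to 3.38 in set B, and 12.7 in the HFD and 2.30 in the ND library of set C. These ratios are within a library and do not depend on its scaling. The epithelial and muscle markers given above are highest in the same 3 libraries of set B, and their part in these ratios was not tested.

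**Figure D3:**
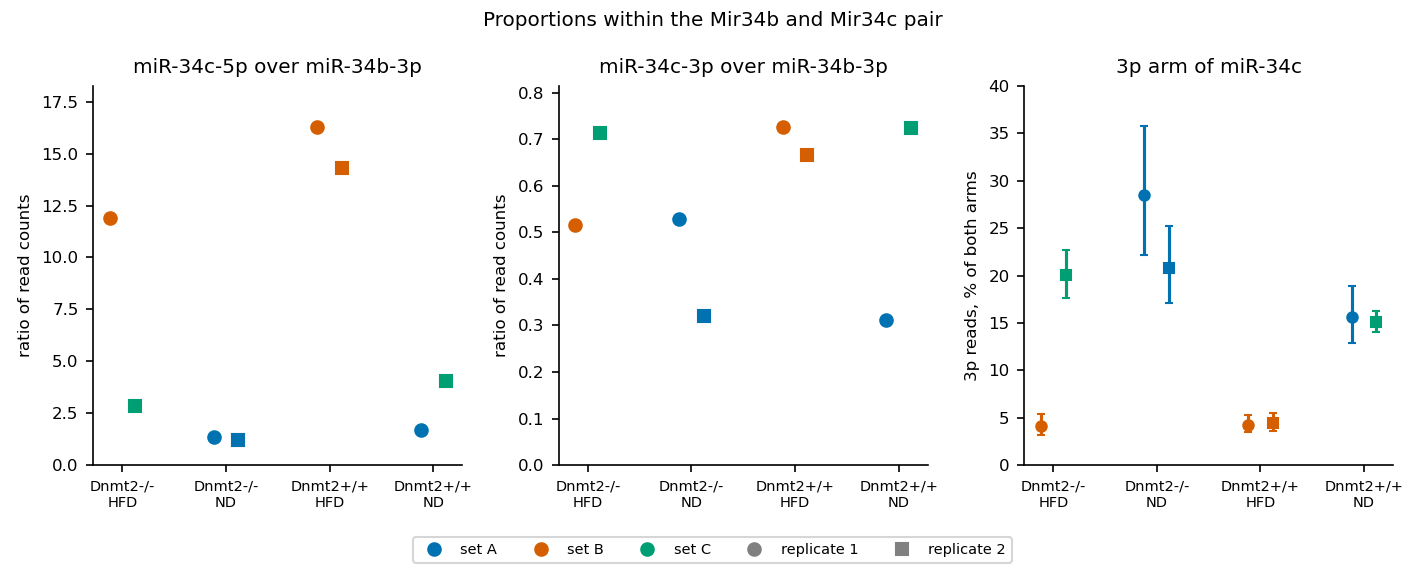
Ratio of miR-34c-5p to miR-34b-3p reads (left), of miR-34c-3p to miR-34b-3p reads (middle) and the 3p share of miR-34c reads with its Wilson 95% interval (right), by group (x axis); each point is 1 library, coloured by set. The 3 libraries of set B have 11.9 to 16.3 miR-34c-5p reads per miR-34b-3p read and a 3p share of 4.14% to 4.46%, while the ratio of the 3p arms stays within 0.312 to 0.727 in all 8.

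miR-449a-5p, the member of the family encoded inside Cdc20b, was scarce. It had 27 and 5 reads in Dnmt2-/- HFD sperm, 1 and 1 in Dnmt2-/- ND sperm, 29 and 36 in Dnmt2+/+ HFD sperm, and 0 and 65 in Dnmt2+/+ ND sperm. In CPM these are 2.62 and 0.376, 0.0759 and 0.0760, 2.82 and 3.54, and 0 and 4.76. The 3 libraries of set A had at most 1 read each, against 27 to 36 in set B and 5 and 65 in set C. All 164 reads began at the annotated base, and 41.5% were the full 22-nt form. miR-34a-5p, with the same seed, followed a like order, with 12 and 3 reads in Dnmt2-/- HFD, 2 and 2 in Dnmt2-/- ND, 13 and 11 in Dnmt2+/+ HFD, and 0 and 19 in Dnmt2+/+ ND sperm. The other arms of the family were at or near 0 at their annotated starts: miR-34a-3p and miR-449c-5p had 1 read each in all 8 libraries, and miR-449a-3p and miR-449c-3p had none. miR-449b had no arm in the reference table and was not counted.

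The comparison of diets asks whether a high-fat diet of the father changes the small RNA of his sperm. With all reads as library size, no tested member was called for diet in edgeR's quasi-likelihood test with Benjamini-Hochberg adjustment. Of the 5 members 4 passed the filter on low counts, all but miR-34b-5p, and 0 of them were called, where 14 of all 188 tested arms were called (7.45%), all higher on HFD. miR-34c-5p averaged 130.6 ± 58.3 CPM on HFD and 73.6 ± 109.4 CPM on ND (SD, n = 4 each), a log2 fold change of 1.42 ± 0.70 SE (95% interval -0.17 to 3.01, edgeR adjusted p = 0.193). miR-449a-5p averaged 2.34 ± 1.37 CPM on HFD and 1.23 ± 2.36 CPM on ND, with a log2 fold change of 2.28 ± 1.37 SE (edgeR adjusted p = 0.255). miR-881-3p averaged 491.7 ± 204.8 CPM on HFD and 825.5 ± 487.9 CPM on ND, with a log2 fold change of -0.72 ± 0.54 SE (95% interval -1.96 to 0.51, edgeR adjusted p = 0.331). miR-34b-3p averaged 13.2 ± 4.89 CPM on HFD and 24.8 ± 23.0 CPM on ND, with a log2 fold change of -0.72 ± 0.64 SE (95% interval -2.18 to 0.73, edgeR adjusted p = 0.369).

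With all reads as library size most arms had higher values on HFD: the median log2 fold change of the 188 arms was 1.31, and 174 of them were above 0. Relative to that median miR-881-3p and miR-34b-3p were each at -2.03, with only 5 and 6 of the 188 arms lower, while miR-34c-5p was at 0.11 and miR-449a-5p at 0.97. With TMM factors the median moved to -0.07, and with microRNA reads as library size to -0.36. With microRNA reads as library size miR-881-3p was called lower on HFD, with a log2 fold change of -2.01 (edgeR adjusted p = 0.0239). DESeq2 with its own size factors called both miR-881-3p (-2.51) and miR-34b-3p (-2.02) lower on HFD, with an adjusted p of 0.00414 each. Over all 15 alternative settings the adjusted p of the diet contrast ran from 0.00414 to 0.828 for miR-881-3p and from 0.00414 to 0.894 for miR-34b-3p. With the set of libraries as a term, where set C alone holds both diets, miR-881-3p turned to 1.36 and miR-34c-5p to -1.36, and neither was called. Without Dnmt2+/+ ND replicate 2, miR-34c-5p (2.60, edgeR adjusted p = 0.00607) and miR-449a-5p (6.23, edgeR adjusted p = 0.00505) were called higher on HFD, and 148 of 208 tested arms were called, 3 of them lower. Their adjusted p ran from 0.00607 to 0.972 and from 0.00505 to 0.91 over the 15 settings.

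**Figure D4:**
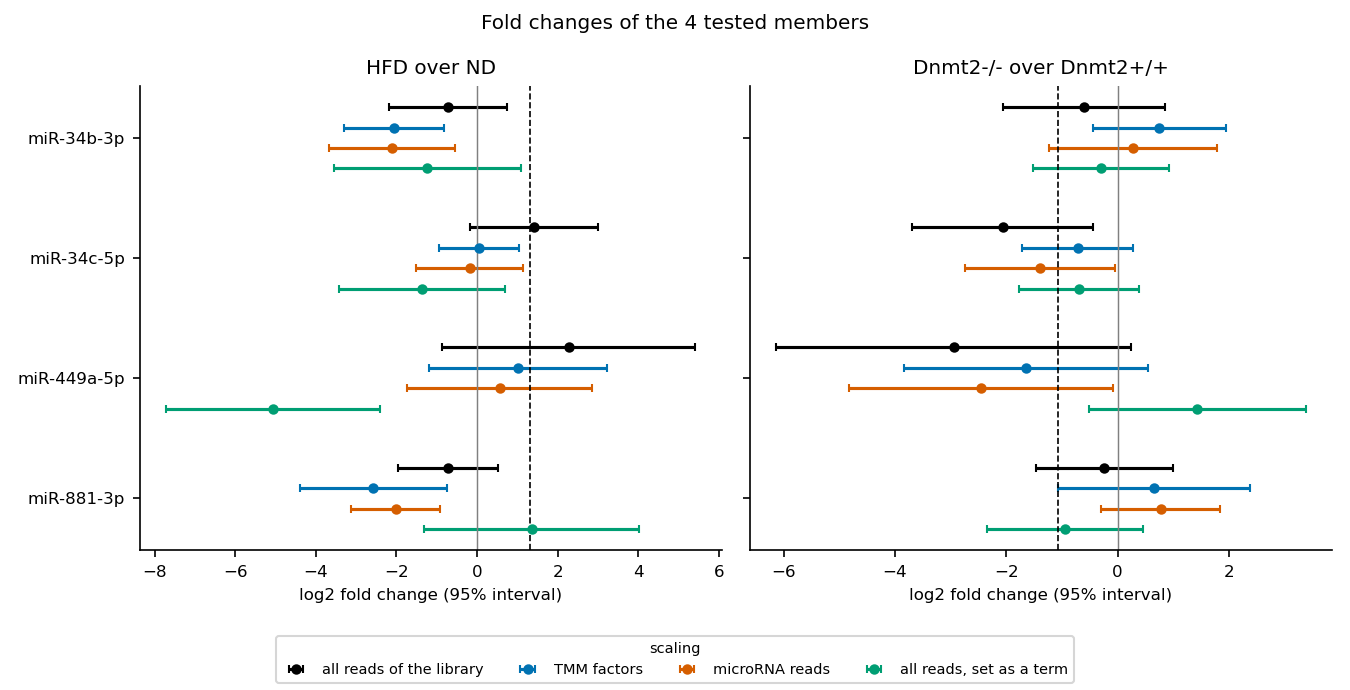
Log2 fold change with its 95% interval (x axis) of the 4 tested members (y axis) for HFD over ND (left) and Dnmt2-/- over Dnmt2+/+ (right), under 4 scalings or terms; the dashed line is the median of all 188 arms with all reads as library size, 1.31 for diet and -1.07 for genotype. The diet value of miR-34c-5p lies on either side of 0 depending on the setting, and that of miR-34b-3p is below 0 under all 4.

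Of the 5 tested arms of the family 0 were called for diet, with a median log2 fold change of 1.42; of the 20 tested arms of the X-chromosome list 0 were called, with a median of 0.81. Of the X-linked arms 17 were above 0 but only 4 above the median of all arms. miR-465c-5p had a log2 fold change of 1.11 ± 0.38 SE (edgeR adjusted p = 0.0943), with 335.4 to 456.3 CPM on HFD and 95.6 to 286.9 CPM on ND. For miR-465b-5p it was 0.81 ± 0.36 SE (edgeR adjusted p = 0.168), with 397.2 to 583.2 CPM on HFD and 159.2 to 388.4 CPM on ND. Both values lie below the median of 1.31 of all 188 tested arms. miR-871-3p (-0.55 ± 0.60) was below 0 like miR-881-3p, with 14.4 to 34.6 CPM on HFD and 8.50 to 93.96 CPM on ND. Among the other marker lists the single tested muscle arm, miR-206, was called higher on HFD, and 0 of 8 epithelial, 0 of 6 blood and immune and 0 of 1 endothelial arms were called. Of the germ cell list 0 of 16 tested arms were called, with a median log2 fold change of 0.65.

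**Figure D5:**
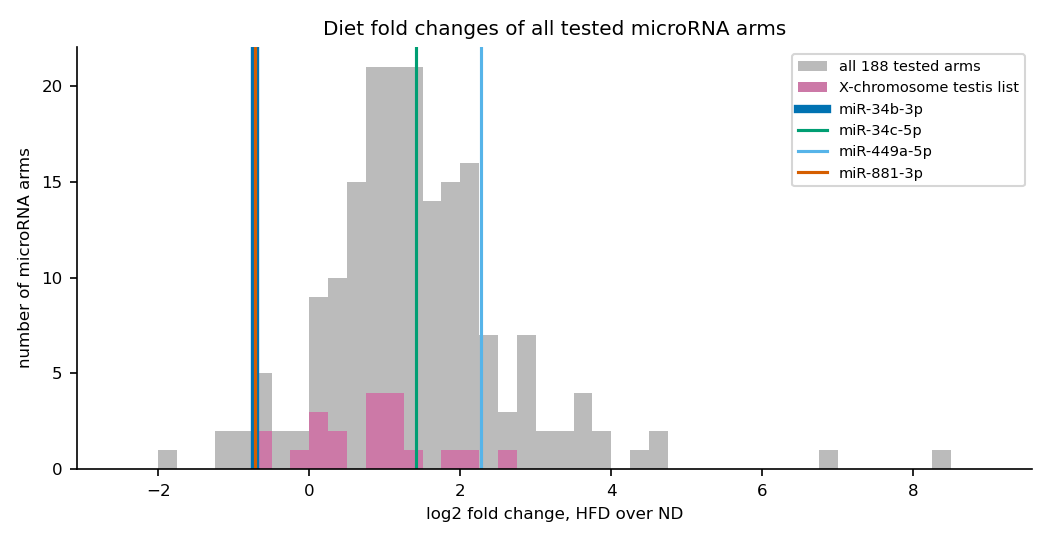
Number of microRNA arms (y axis) by log2 fold change of HFD over ND (x axis, bins of 0.25) for all 188 tested arms (grey), the 20 tested arms of the X-chromosome list (pink) and the 4 tested members (vertical lines). miR-881-3p and miR-34b-3p lie together at -0.72, in the low tail, and miR-34c-5p lies at 1.42, near the median of 1.31.

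The comparison of genotypes asks whether loss of Dnmt2 changes these RNAs. No arm of the 188 was called in edgeR (0%), where the lowest adjusted p was 0.282 and 16 arms had p under 0.05 before adjustment, and DESeq2 also called 0. miR-34c-5p averaged 49.8 ± 45.1 CPM without Dnmt2 and 154.4 ± 90.6 CPM with it (SD, n = 4 each), a log2 fold change of -2.07 ± 0.71 SE (95% interval -3.69 to -0.44, unadjusted p = 0.0185, edgeR adjusted p = 0.282). miR-449a-5p averaged 0.787 ± 1.23 and 2.78 ± 2.02 CPM in Dnmt2-/- and Dnmt2+/+ sperm, with a log2 fold change of -2.94 ± 1.40 SE (edgeR adjusted p = 0.282). miR-34b-3p averaged 13.7 ± 6.73 and 24.2 ± 22.9 CPM in Dnmt2-/- and Dnmt2+/+ sperm, with a log2 fold change of -0.60 ± 0.64 SE (edgeR adjusted p = 0.468). miR-881-3p averaged 589.3 ± 366.3 and 728 ± 455.3 CPM in Dnmt2-/- and Dnmt2+/+ sperm, with a log2 fold change of -0.24 ± 0.54 SE (95% interval -1.47 to 0.997, edgeR adjusted p = 0.722).

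With all reads as library size most arms had lower values in Dnmt2-/- sperm, with a median of -1.07 and 181 of 188 below 0, and miR-34c-5p and miR-449a-5p lay at -0.995 and -1.87 relative to it. The 5 tested arms of the family had a median of -1.43 and the 20 of the X-chromosome list -1.08. With TMM factors the median of all arms moved to 0.06, and the values of miR-34b-3p and miR-881-3p turned to 0.75 and 0.66. Without Dnmt2+/+ ND replicate 1, miR-34c-5p (-2.49, edgeR adjusted p = 0.016) and miR-449a-5p (-3.45, edgeR adjusted p = 0.019) were called lower in Dnmt2-/- sperm, as were 71 of 218 tested arms. Over the 15 alternative settings the adjusted p ran from 0.016 to 0.997 for miR-34c-5p and from 0.019 to 0.997 for miR-449a-5p. Without Dnmt2+/+ ND replicate 2, the value of miR-34c-5p was -0.88 and that of miR-449a-5p was 1.01.

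The effect of diet was not shown to depend on genotype for any member. The log2 difference between the diet effect in Dnmt2-/- and in Dnmt2+/+ sperm was 1.96 ± 1.38 SE for miR-34c-5p, 1.86 ± 1.28 for miR-34b-3p, 3.70 ± 2.71 for miR-449a-5p and 0.56 ± 1.08 for miR-881-3p (edgeR adjusted p = 0.789 each). None of the 188 arms was called (0%); 2 had p under 0.05 in edgeR before adjustment, and DESeq2 called 0.

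Across the 8 libraries miR-34c-5p and miR-449a-5p were low and high in the same ones, with Pearson r = 0.935 of their log2(CPM + 1) values. For miR-34c-5p the value was 0.42 with miR-34b-3p and -0.25 with miR-881-3p, and for miR-34b-3p and miR-881-3p it was 0.39. For miR-449a-5p it was 0.305 with miR-34b-3p and -0.51 with miR-881-3p, so the members did not rise and fall as 1 group. Among 79 arms with a mean of at least 10 CPM, the arm most like miR-34b-3p in log2(CPM + 1) over the 8 libraries was miR-34c-3p (Pearson r = 0.90), then miR-25-3p (0.77) and miR-140-3p (0.72). miR-34c-5p was most like miR-128-3p (0.96), miR-152-3p (0.96) and the X-linked miR-871-5p (0.96). miR-449a-5p was most like miR-29a-3p, miR-872-5p and miR-93-5p (0.98 to 0.99). miR-881-3p was most like miR-140-3p (0.88), the X-linked miR-871-3p (0.82) and miR-148a-3p (0.81). The 8 points share the library totals and the 3 sets, so these values are descriptions. miR-34b-5p, with 12 reads, is left out.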

How the data were processed

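The authors deposited, for each sperm library, counts of distinct reads of 18 to 44 nt with their sequence and length, per the files' own values. The trimming step is not stated in the sources used here, and the submitters' processing notes name the builds GRCm38 and mm10. From these counts, reads of 20 to 26 nt that begin with the first 20 bases of a mature mouse arm were assigned to that arm. The arms came from RefSeq (GRCm38.p6): 1622 arms were searched, and 52 mature entries under 20 nt were left out. miR-34c-5p was counted from base 13 of the Mir34c hairpin, where 99.2% of the reads of that side began. CPM is an arm's count for every 1000000 reads in its library. Depth was 10165031 to 19030258 reads, and a count of 0 allows up to 3 reads. Intervals and floors cover counting error only, since PCR copies of a molecule are not told apart.

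Libraries were grouped by the labels, 2 per group. The labels do not say that these came from separate animals, so a p-value speaks of the spread between these libraries, which may be technical in part. No library pair agreed within counting noise. Counts of all arms were tested with edgeR 4.0.16 in R 4.3.3 (quasi-likelihood, 4 group means, all reads as library size, filterByExpr, Benjamini-Hochberg adjusted p under 0.05). The same fit was run on simulated counts. These held no difference between the sets, so that run cannot show how the sets affect the calls. Shares were tested by exact permutation, two-sided, with scipy 1.17.1. Alternatives were TMM factors, microRNA reads as library size, no filter, DESeq2 1.42.0, a replicate block, the set of libraries as a term, 18 matched bases, and each library left out. The named arms are the members, the rest of both lists at a mean of at least 10 CPM, and the 3 arms most like each member. The members and lists were chosen with earlier results of these data known. The 3T3 files were not used.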

Additional observations from a re-analysis of the deposited data

Results flagged for a closer look

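For a library far from the other 3, 52 groups of 4 libraries were examined, by diet and by genotype. The groups share libraries and reads, so the nominal rate of 1 in 20 is not a chance level for their count. Of these groups 6 had such a library, and 5 of the 6 are Dnmt2+/+ ND replicate 2. It had 58.4 CPM of miR-34b-3p, and the next Dnmt2+/+ library had 15.1 CPM. It had 237.4 CPM of miR-34c-5p, and the next ND library had 25.4 CPM. It had 4.76 CPM of miR-449a-5p, and the next ND library had 0.0760 CPM. The family of miR-34 and miR-449 took 1.62% of its microRNA reads, against at most 0.358% in the other ND libraries and at most 0.388% in the other Dnmt2+/+ libraries. miR-449a-5p was also far from the rest in Dnmt2-/- HFD replicate 1, with 2.62 CPM and 0.376 CPM in the next Dnmt2-/- library.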

How the results depend on the processing

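The number of arms called for diet was 14 of 188; it was 7 with TMM factors, 9 with microRNA reads as library size, 28 with no filter, 27 with DESeq2 and 0 with the set as a term, and 1 to 148 when 1 library was left out. The low end came without Dnmt2-/- ND replicate 2 (1) and replicate 1 (2), the high end without Dnmt2+/+ ND replicate 2 (148). For genotype the count was 0 in every setting but 1, 71 without Dnmt2+/+ ND replicate 1; for diet by genotype, and for the 16 tests of shares, it was 0 throughout. Of the 14, all were higher on HFD; by TMM 5 were higher and 2 lower, by microRNA reads 6 and 3, and by DESeq2 13 and 14. Same-numbered libraries of 2 groups did not deviate together throughout. The r was 0.568 between Dnmt2-/- HFD and Dnmt2-/- ND and -0.532 between Dnmt2-/- ND and Dnmt2+/+ ND. These values do not settle whether the numbers pair libraries. The replicate block gave 10 calls for diet and 0 for genotype, none of them a member. Diet values that turned sign were miR-34c-5p at -0.18 with microRNA reads as library size and -1.36 with the set as a term, miR-449a-5p at -5.06 and miR-881-3p at 1.36 with the set as a term. Genotype values that turned sign were miR-34b-3p at 0.75, 0.28 and 0.59 and miR-881-3p at 0.66, 0.78 and 0.50 with TMM factors, microRNA reads and DESeq2, and miR-449a-5p at 1.43 with the set as a term. With 1 library left out, genotype values ran from -1.06 to 0.042 for miR-34b-3p, -3.92 to 1.01 for miR-449a-5p and -0.79 to 0.18 for miR-881-3p. The difference in family share then ran from -0.410 to 0.0751 percentage points for diet and from -0.485 to 0.000538 for genotype. For genotype, that of the 22-nt share of miR-881-3p ran from -6.69 to 1.15 and that of its tails from -1.44 to 8.77. A setting added after the data were seen, starts within 2 bases, moved the difference in 3p share of miR-34b to -3.41 (diet) and 2.84 (genotype), against -1.22 and 1.04. A library left alone in its group was assumed to vary like the other groups. The causes were not tested. Depth limits miR-34b-5p and miR-449a-5p, which had under 20 reads in at least 1 library and so no test of shares.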
